A study of Mus musculus with 12 samples.

Results

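The 10 genes described here encode transcription factors that build and maintain heart muscle: Gata4, Gata6, Nkx2-5, Tbx5, Tbx20, Mef2a, Mef2c, Mef2d, Srf and Hand2. They were selected by symbol, a rule that uses no measured value, although earlier results of these data were known when the list was chosen. The count and TPM matrices, of 53801 genes, held all 10. All 10 also passed the filter on low counts, which left 15306 genes to test.

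As background, these proteins bind DNA close to one another at genes of the heart. GATA4 and GATA6 are zinc finger proteins, NKX2-5 is a homeodomain protein, and TBX5 and TBX20 carry a T-box. MEF2A, MEF2C, MEF2D and SRF share the MADS box, and HAND2 is a basic helix-loop-helix protein. In cardiomyocytes they act on genes for contractile proteins, ion channels and natriuretic peptides, and several of them, such as Gata4, Gata6, Tbx20, Mef2c, Srf and Hand2, are also made by other cells of the heart.

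RNA from the hearts of C57BL/6N mice was sequenced in 3 groups of 4 hearts, labelled Sham, Day 1 post AMI and Day 7 post AMI, where AMI is acute myocardial infarction. The infarct was made by tying the left anterior descending coronary artery (LAD) through an opened chest under isoflurane, and the study's methods give male mice aged 10 to 14 weeks. The labels name no mutant allele or transgene in any group, do not separate infarct, remote muscle and chambers, and do not say on which day each sham heart was taken. Every heart is a different animal, and the comparisons of day 1 and of day 7 with sham share the same 4 sham hearts. Library totals ran from 23204551 to 32166517 counts. The lowest count of any of the 10 genes in any library was 398, for Tbx5, where Poisson counting error alone is 5.01%, and the highest was 6910.

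The labelled tissue was checked against cell type markers. All 11 cardiomyocyte markers were present in all 12 libraries with Myh6, the main myosin heavy chain of the adult mouse ventricle, the most abundant, whereas the 6 skeletal muscle markers summed to at most 4.21 CPM (per-million counts). Sham replicates 1, 2 and 4 each stood apart in some measure. Sham replicate 1 had the largest mitochondrial share, 27.4% against 17.9% to 21.5% in the other sham hearts, and the lowest TMM factor, 0.781. Sham replicate 2 had the most erythroid RNA, with 6 markers summing to 4459 CPM against 491 to 1180 in the other 3, and sham replicate 4 had the most atrial RNA, with Bmp10, an atrial growth factor, at 66.3 CPM against 0.0969 to 9.28. Each count of the 10 genes was therefore also taken without each heart and without sham replicates 2 and 4 together, and the values are given where a call changed.

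The scale between libraries matters for these genes. The TMM factors (trimmed mean of M values), which multiply each library total before CPM are taken, were 0.781 to 0.917 in sham, 1.01 to 1.06 on day 1 and 1.10 to 1.17 on day 7. Mitochondrial transcripts took 17.9% to 27.4% of sham counts, 12.1% to 15.9% on day 1 and 13.1% to 19.2% on day 7. With library totals alone the median log2 fold change over all genes tested was 0.26 on day 1 and 0.42 on day 7 against sham, and 0.15 between the days. With TPM (per-million transcripts), which also divide by transcript length, it was 0.23, 0.44 and 0.18. With TMM it was −0.01, 0.03 and 0.02, so the fold changes below are close to changes relative to the typical gene.

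**Figure D1:**
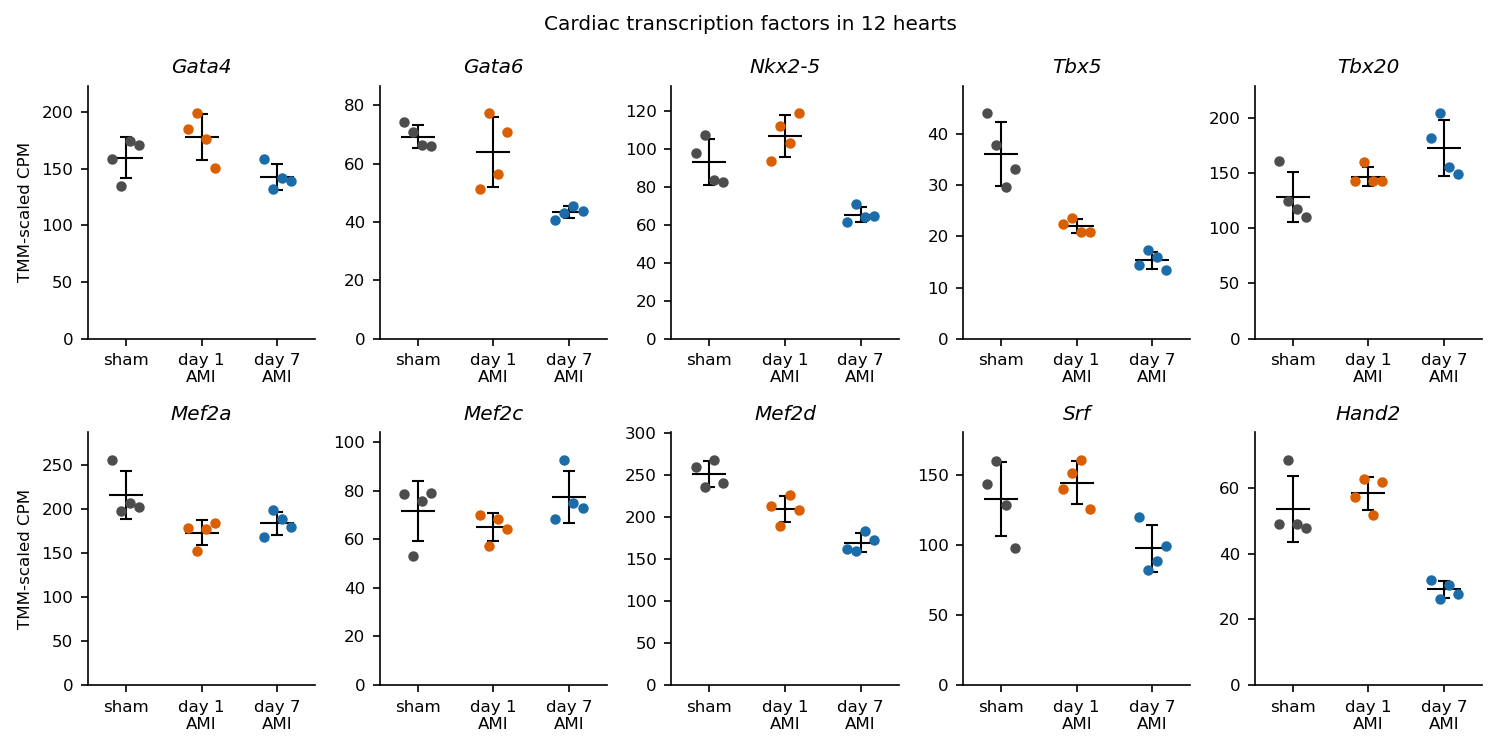
TMM-scaled CPM of each of the 10 genes in every heart (points), with the mean and SD of the 4 hearts of each group; every axis starts at 0. On this scale Tbx5 stepped down from sham to day 1 to day 7 with no overlap between groups; its direction was kept on every scale tried, but on TPM sham and day 1 overlapped.

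Compared per length within sham hearts, the highest of the 10 was Nkx2-5 at 80.3 ± 13.2 TPM (SD, n = 4), and Mef2d followed at 70.5 ± 4.51 TPM. Then came Gata4 at 61.1, Mef2a at 49.9, Srf at 37.7, Hand2 at 28.1, Gata6 at 25.6, Mef2c at 20.6, Tbx20 at 15.8 and Tbx5 at 13.9 TPM. Neighbours in that order had overlapping ranges, except that Gata4 lay above Mef2a in every sham heart. On day 7 Gata4 at 83.4 TPM and Nkx2-5 at 82.6 TPM overlapped at the top, and Tbx5 at 8.42 ± 0.827 TPM lay below the next lowest, Hand2 at 22.2 ± 1.92 TPM, in every heart. Tbx20 and Tbx5, neighbours in sham with overlapping ranges, no longer overlapped on day 1, at 23.9 ± 1.81 and 11.1 ± 0.663 TPM.

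On day 1, the comparison that asks what differs in the heart a day after the artery is tied, 3 of the 10 genes fell against sham: Tbx5, Mef2a and Mef2d. All 3 directions held relative to the median of all genes on each of 4 other scales. For library totals this is nearly fixed by construction, because they differ from TMM only by a factor per library. Without the median subtracted, Mef2d turned upward on library totals alone and Mef2a and Mef2d turned upward on TPM. Tbx5, which drives chamber muscle and conduction system genes, showed the largest fall, a log2 fold change of −0.72 ± 0.12 (SE, 4 hearts a group), or 1.65-fold lower (adjusted p = 0.000338). The falls of Mef2a (−0.32 ± 0.10, adjusted p = 0.0174) and Mef2d (−0.26 ± 0.08, adjusted p = 0.0183) were small. Both calls were lost without day 1 replicate 2, and without sham replicate 2 Nkx2-5 and Hand2 passed upward. The count of 3 of 10 lower stands beside 19.9% of all genes tested, and 0 of 10 rose by edgeR beside 22% of all genes. The number higher was also 0 at an unadjusted p under 0.05 and 0 by DESeq2, but the scale decides these numbers: on library totals alone Tbx5 fell and 4 rose (Gata4, Nkx2-5, Tbx20 and Hand2), and on TPM 0 fell and 5 rose, the same 4 and Srf. A fold change of 2 or more was reached by 0 of 10 in either direction, and DESeq2 also put all 10 under that size. Of all genes, 10.8% reached it with an adjusted p under 0.05.

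On TMM-scaled CPM the 3 genes that fell were also the 3 whose day 1 hearts all lay below every sham heart. Beside them stand 17.1% of all genes with no overlap in that direction. In the other direction 0 of 10 had separate groups, beside 19.6% of all genes. The smallest exact permutation p that 4 hearts against 4 can give is 0.0286, which these 3 genes reached, and over the 30 tests of this kind it became an adjusted exact p of 0.0613, so none passes that correction. The scale decides these separations too: on unscaled TPM Gata4 and Tbx20 lay wholly above sham on day 1, and none of the 10 lay wholly below. The share of all genes was not counted on TPM. With TMM the median of the 10 log2 fold changes was 0.00, beside −0.01 over all genes tested. In whole-heart RNA, fewer cells of a type and less RNA per cell cannot be told apart, here and in all that follows.

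By day 7, which asks what differs in the healing heart, 6 of the 10 genes had fallen against sham and 1, Tbx20, had risen. Relative to the median of all genes these 7 directions held on each of 4 other scales, for library totals again nearly by construction. Without the median subtracted, Nkx2-5, Mef2d and Srf turned upward on TPM. The falls were led by Tbx5 (−1.25 ± 0.12, 2.37-fold lower, adjusted p = 1.1e-06) and Hand2 (−0.88 ± 0.12, 1.84-fold lower, adjusted p = 2.09e-05). They were followed by Gata6 (−0.68), Mef2d (−0.57), Nkx2-5 (−0.51) and Srf (−0.44). Tbx20 rose by 0.43 ± 0.12, a 1.35-fold change (adjusted p = 0.00801), while Gata4, Mef2a and Mef2c did not pass. The 6 lower stand beside 28.4% of all genes and the 1 higher beside 30.9%. On library totals alone 2 fell (Tbx5 and Hand2) and 2 rose (Tbx20 and Mef2c), on totals without mitochondrial and hemoglobin genes 4 fell and 2 rose, and on TPM Tbx5 alone fell and 4 rose (Gata4, Tbx20, Mef2a and Mef2c). Only Tbx5 exceeded a fold change of 2, which 21.2% of all genes reached in either direction with an adjusted p under 0.05. On library totals (−0.84) and on TPM (−0.65) Tbx5 did not, while on TPM Tbx20 did, upward (1.02).

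On TMM-scaled CPM the day 7 and sham hearts did not overlap for 5 genes, Gata6, Nkx2-5, Tbx5, Mef2d and Hand2. All 5 were lower on day 7, beside 24.7% of all genes lower with no overlap. In the upward direction 0 of 10 had separate groups, beside 28.3% of all genes. The 5 genes each had the smallest exact permutation p, 0.0286, with an adjusted exact p of 0.0613. On unscaled TPM, Tbx5 alone lay wholly below sham on day 7, while Gata4, Tbx20, Mef2a and Mef2c lay wholly above. The share of all genes was not counted on that scale. With TMM the median of the 10 log2 fold changes was −0.47 on day 7, beside 0.03 over all genes tested. No test of the 10 genes as a set was made.

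Between day 1 and day 7, a comparison that asks what changes as the infarct heals, 7 of the 10 genes fell and 0 rose by edgeR, and all 7 directions were kept on each of 4 other scales with and without the median of all genes subtracted. The number higher was also 0 at an unadjusted p under 0.05 and 0 by DESeq2, but on library totals alone 5 genes fell and 2 rose (Tbx20 and Mef2c), and on TPM 3 fell and 3 rose, the same 2 and Mef2a. Hand2 fell most, by 1.00 on the log2 scale (2.01-fold lower, SE 0.12, adjusted p = 1.57e-05), then Nkx2-5 (−0.71), Srf (−0.57), Gata6 (−0.56), Tbx5 (−0.52), Gata4 (−0.32) and Mef2d (−0.30). Beside the 7 lower stand 22.8% of all genes, and beside 0 higher 24.2%. Hand2 alone passed a fold change of 2, beside 11.2% of all genes that reached it with an adjusted p under 0.05. It passed only just: without day 7 replicate 2 it was −0.96 and without day 1 replicate 2 −0.97. Without day 1 replicate 4 or day 7 replicate 4 it was −0.98, and on library totals −0.88 and TPM −0.74. On TMM-scaled CPM the groups did not overlap for 6 genes, the list of falls without Gata4, beside 20.9% of all genes lower. In the upward direction it was 0, beside 23.5%. On unscaled TPM, Nkx2-5, Tbx5 and Hand2 lay wholly below day 1, and Tbx20, Mef2a and Mef2c wholly above. The median of the 10 was −0.42, beside 0.02 over all genes.

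**Figure D2:**
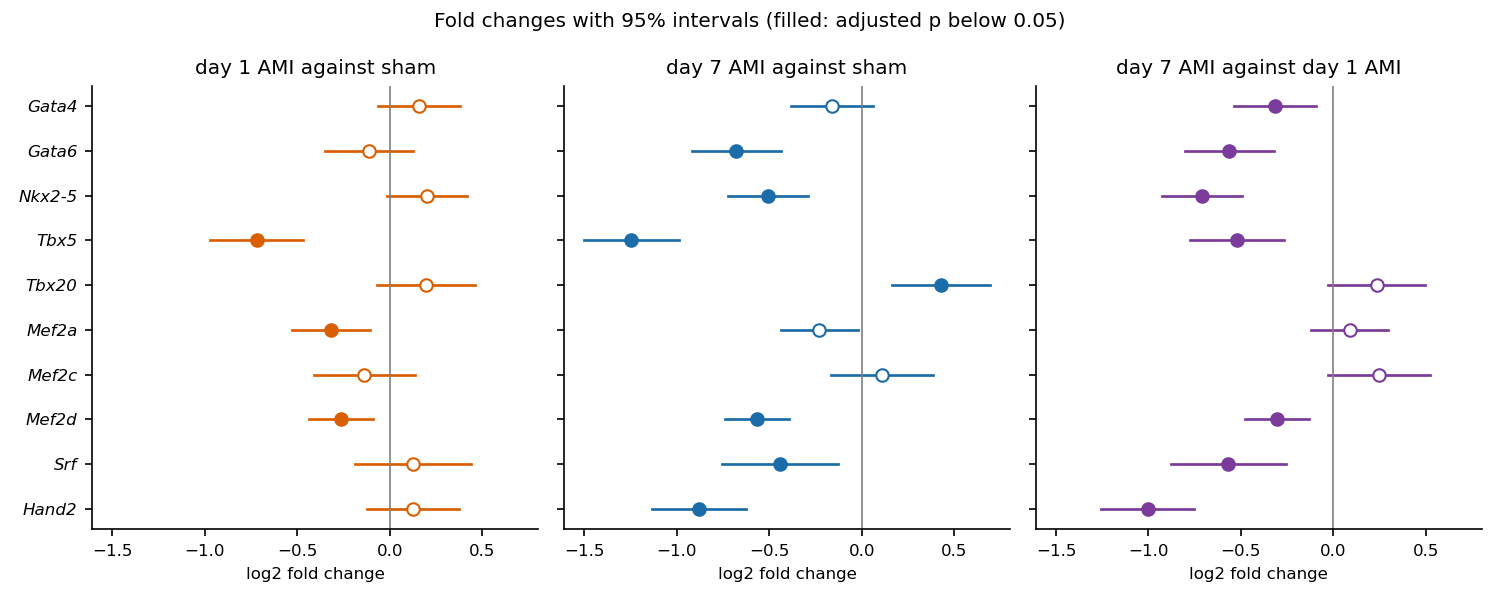
Log2 fold change of each gene (points) with its 95% interval (lines) in the 3 comparisons, filled where the adjusted p is under 0.05. Tbx5 lies below 0 in all 3 on every scale tried, while the falls of Mef2a and Mef2d on day 1, and of Nkx2-5, Mef2d and Srf on day 7, turn upward on TPM when the shift of all genes is not removed.

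Of the T-box factors, Tbx5 (ENSMUSG00000018263, chr5:119832668-119885219, plus strand, GRCm38) stood at 44.2, 37.9, 29.8 and 33.2 CPM in the 4 sham hearts, at 22.5, 23.7, 20.9 and 20.8 on day 1, and at 14.4, 17.3, 15.9 and 13.5 on day 7. Each group lay wholly below the one before it. On TPM without scaling the day 1 difference of Tbx5 was −0.28 and no longer passed (adjusted p = 0.0751 by limma), and its lowest sham value, 11.3 TPM, lay under the highest on day 1, 11.7 TPM; the day 7 fall was −0.65 and still passed (adjusted p = 0.000388). On day 1 Tbx5 lay low among all genes, with 7.59% of the genes tested showing a lower fold change, and on day 7 with 3.23%. Leaving out any 1 heart kept the Tbx5 calls, with the day 7 log2 fold change between −1.33 and −1.14.

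Tbx20 (ENSMUSG00000031965, chr9:24718138-24774303, minus strand, GRCm38), a T-box factor that can both activate and repress genes and that is needed in adult cardiomyocytes, read 161, 125, 117 and 110.0 CPM in sham. It was 142, 160, 143 and 143 CPM on day 1 and 182, 204, 155 and 149 CPM on day 7. Sham replicate 1 reached into the day 7 range, so the groups overlapped, although 4 of 4 day 7 hearts lay above the sham mean. The rise on day 7 kept its direction on every scale tried and passed with any 1 heart left out (0.34 to 0.55, highest adjusted p 0.0321). With sham replicates 2 and 4 both left out it was 0.31 and did not pass (adjusted p = 0.104). The rise was larger on library totals (0.835) and on TPM (1.02). Its exact permutation p was 0.0857, with an adjusted exact p of 0.129. Without sham replicate 1, the day 1 difference of 0.20 became 0.32 and passed at an adjusted p of 0.0306. Within each heart the ratio of Tbx20 to Tbx5 in TPM, which no library scaling can alter, was 1.15 ± 0.0609 (SD, n = 4) in sham, 2.15 ± 0.220 on day 1 and 3.94 ± 0.476 on day 7. The lowest day 1 ratio, 1.84, lay above the highest sham ratio, 1.22, and the lowest day 7 ratio, 3.34, lay above the highest on day 1, 2.31; the ratio was described and was not tested.

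Of the GATA factors, Gata6 (ENSMUSG00000005836, chromosome 18, plus strand), which acts in cardiomyocytes and smooth muscle, stood at 74.2, 70.9, 66.3 and 65.9 CPM in sham. On day 1 it was 51.4, 77.4, 56.4 and 70.8 CPM, a wide spread that straddled sham, and on day 7 it was 40.6, 43.2, 45.5 and 43.9 CPM, below every other heart. Its day 7 fall, −0.68 ± 0.11 (adjusted p = 0.00013), kept its sign on every library scale tried. On library totals alone (−0.28) and on TPM (−0.12) it was smaller and no longer passed, at adjusted p values of 0.0556 and 0.417 by edgeR and limma. Gata4 (ENSMUSG00000021944, chr14:63198922-63271692, minus strand, GRCm38), a regulator of growth and survival genes in cardiomyocytes, ranged from 135 to 175 CPM in sham, from 151 to 199 on day 1 and from 132 to 159 on day 7. It did not pass against sham on either day, and its day 7 difference, −0.16, turned upward on library totals and on TPM. It fell between day 1 and day 7 (−0.32 ± 0.10, adjusted p = 0.0212), with overlapping groups. That call was lost on leaving out day 1 replicate 1 (adjusted p = 0.0524), day 1 replicate 2 (0.0619), day 7 replicate 2 (0.0615) or day 7 replicate 4 (0.0531).

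Nkx2-5 (ENSMUSG00000015579, chr17:26838664-26845009, minus strand, GRCm38), the homeodomain factor that partners GATA4 and TBX5 at many heart genes, was 97.9, 107, 83.7 and 82.1 CPM in sham and 93.3, 112, 103 and 119 CPM on day 1. On day 7 it was 61.3, 71.0, 64.2 and 64.7 CPM. The sham and day 1 hearts overlapped, and all day 7 hearts lay below all others. Nkx2-5 fell by 0.51 ± 0.10 on the log2 scale against sham on day 7 (adjusted p = 0.000596), a direction that turned to 0.05 on TPM without the median of all genes subtracted. Against day 1 the fall was 0.71 ± 0.10 (−0.71 on the log2 scale, adjusted p = 7.57e-05), with the same sign on all scales. On day 1 its difference from sham was 0.20 and did not pass; without sham replicate 2 it was 0.28 with an adjusted p of 0.0375.

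The MEF2 genes encode MADS box factors that respond to calcium signals through class II histone deacetylases. Mef2d (ENSMUSG00000001419, chr3:88142372-88172086, plus strand, GRCm38) was 259, 236, 268 and 240.4 CPM in sham, 213, 189, 226 and 209 CPM on day 1, and 162, 160, 184 and 172 CPM on day 7. Each group lay below the one before, with no overlap. The day 7 fall of −0.57 ± 0.08 (adjusted p = 3.64e-05) kept its sign except on TPM, where it was 0.10. The smaller day 1 fall was lost without sham replicate 3 (adjusted p = 0.0597) or day 1 replicate 2 (0.0653), and on TMM-scaled TPM (0.103) and with no count filter (0.0602). Mef2a (ENSMUSG00000030557, chr7:67231163-67372858, minus strand, GRCm38) was 256, 197, 206 and 202 CPM in sham and 178, 152, 177 and 184 CPM on day 1. Those groups did not overlap, yet the call was lost without sham replicate 1 (adjusted p = 0.0517) or day 1 replicate 2 (0.0617), and the direction turned on TPM, to 0.04. On day 7 Mef2a ranged from 168 to 198 CPM, and its difference from sham, −0.23 (adjusted p = 0.0548), passed with DESeq2 (0.0301) and DESeq2's size factors (0.036). It also passed with sham replicates 2 and 4 both left out (−0.34, adjusted p = 0.0293) and without sham replicate 2 (0.0372), day 1 replicate 2 (0.0431) or day 7 replicate 2 (0.0441), but turned upward on library totals and TPM.

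Mef2c (ENSMUSG00000005583, chr13:83504034-83667080, plus strand, GRCm38), the MEF2 gene that acts earliest in heart development and is also made by endothelium, did not pass in any of the 3 comparisons with TMM. Without removing the shift of all genes it passed upward on day 7 against sham, at 0.52 on library totals (adjusted p = 0.0013 by edgeR) and 0.74 on TPM (adjusted p = 0.000231 by limma), and between the days at 0.37 and 0.48. It was 78.7, 53.1, 75.7 and 78.9 CPM in sham, 70.1, 57.4, 68.3 and 64.4 CPM on day 1, and 68.3, 92.8, 74.9 and 72.9 CPM on day 7. Sham replicate 2 was far below the other sham hearts, and without it the day 7 difference of 0.11 became −0.01. Of the summed TPM of Mef2a, Mef2c and Mef2d, Mef2d held 49.98 ± 1.38% (SD, n = 4) in sham, 50.9 ± 2.27% on day 1 and 43.1 ± 2.98% on day 7. Mef2c held 14.6 ± 1.65%, 16.1 ± 1.63% and 20.02 ± 2.54%, and Mef2a held 35.4 ± 1.85%, 33.1 ± 1.22% and 36.9 ± 1.92%. These shares do not depend on the scaling of libraries, and they were not tested. Mef2b, the remaining family member, was too low to test, at 0.106 CPM in sham.

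Srf (ENSMUSG00000015605, chr17:46548329-46556175, minus strand, GRCm38) encodes serum response factor, which binds CArG boxes at genes of the cytoskeleton and at immediate early genes, and its own gene is a known target. It was 144, 160.3, 129 and 98.4 CPM in sham, 140.5, 152, 161 and 126 CPM on day 1, and 120.2, 82.7, 88.6 and 99.6 CPM on day 7. The sham hearts were the most spread, and sham replicate 4 lay within the day 7 range. The fall against sham on day 7, −0.44 ± 0.15 (adjusted p = 0.0171), which turned to 0.12 on TPM without the median of all genes subtracted, was lost without sham replicate 2 (−0.34, adjusted p = 0.0591) or day 7 replicate 2 (−0.37, adjusted p = 0.0563). The fall from day 1 to day 7, −0.57 ± 0.15 (adjusted p = 0.00563), had separate groups on CPM, though not on TPM, and the same sign on all scales.

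The Srf promoter is shown because the gene carries the motif of its own product. In the 250 bases before its start, at chr17:46556163-46556412 (minus strand, GRCm38.p6, RefSeq), a search of both strands found 2 CArG boxes, at −82 to −73 and −62 to −53 from the start, printed in capitals. A CArG box lies in 1.63% of the 32851 promoter windows searched, each from 250 bases before to 50 after a start.
Srf: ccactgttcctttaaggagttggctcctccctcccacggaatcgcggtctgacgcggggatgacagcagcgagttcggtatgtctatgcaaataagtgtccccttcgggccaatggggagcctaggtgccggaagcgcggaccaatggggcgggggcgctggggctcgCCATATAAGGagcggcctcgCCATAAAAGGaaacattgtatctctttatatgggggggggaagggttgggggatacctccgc

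Hand2 (ENSMUSG00000038193, chr8:57320983-57324633, plus strand, GRCm38), a factor of the right ventricle, epicardium and cardiac fibroblasts in development, passed on day 7 and not on day 1. It was 49.0, 68.6, 48.9 and 47.7 CPM in sham, 57.2, 62.6, 51.9 and 61.8 CPM on day 1, and 31.9, 26.3, 30.5 and 27.7 CPM on day 7. All day 7 hearts lay below all others, while sham replicate 2 was far above the other sham hearts; without it the day 1 difference of 0.12 became 0.27 and passed at an adjusted p of 0.0315. The day 7 fall kept its sign on every library scale tried, but missed the threshold on TPM (−0.30, adjusted p = 0.0708 by limma). Exons of Hand2 share 461 bases, 19.6% of its exonic length, with the opposite-strand gene AV026068 (ENSMUSG00000100510), which was −0.09 on day 1 (adjusted p = 0.624) and fell on day 7 (−0.87 ± 0.14, adjusted p = 8.3e-05). Opposite-strand genes also share exons with Mef2d (531 bases, 8.87% of its exonic length), Mef2a (302 bases, 2.06%) and Gata6 (93 bases, 1.43%). The gene opposite Mef2a, Lysmd4, fell on day 1 (−0.27 ± 0.10) and day 7 (−0.64 ± 0.10), the one opposite Gata6, 1010001N08Rik, fell on day 7 (−1.25 ± 0.28), and the one opposite Mef2d, 1700113A16Rik, had at most 13 counts. The strand that was counted is not given, so for all 4 pairs reads in the shared stretch cannot be told apart. The pair of Hand2 is the most exposed: AV026068 averaged 1210 counts a library, where Hand2 itself had 681 to 2099. Lysmd4 averaged 564 counts and 1010001N08Rik 72.4.

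The Hand2 promoter is shown because this gene fell most between the days. In its 250 bases before the start, at chr8:57320733-57320982 (plus strand, GRCm38.p6, RefSeq), capitals mark a HAND E-box (CATCTG) at −246 to −241 and GATA motifs (GATA after A or T and before A or G, on either strand) at −215 to −210 and −172 to −167. Of all promoter windows 17.2% hold the E-box and 29.8% a GATA motif.
Hand2: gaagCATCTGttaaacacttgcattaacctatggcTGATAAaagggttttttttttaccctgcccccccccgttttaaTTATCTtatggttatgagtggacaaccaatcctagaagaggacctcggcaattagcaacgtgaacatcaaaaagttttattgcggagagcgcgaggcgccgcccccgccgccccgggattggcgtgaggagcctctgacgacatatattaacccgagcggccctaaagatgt

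Promoters were available for 7 of the 10 genes, in 9 windows; Gata4, Gata6 and Tbx5 had none. Besides those printed, Mef2a held a MEF2 motif across its start, at −2 to 8, where 3.19% of all windows hold that motif, and a T-box core (GGTGTG) at 13 to 18. One Mef2c window held a T-box core, which 19.0% of all windows hold, and another a HAND E-box. The windows of Nkx2-5, Tbx20 and Mef2d held none of the 6 motifs, which says only that these letters are not there. A match is a description of letters and not a shown binding site.

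Cardiomyocyte transcripts fell alongside. Of the 11 cardiomyocyte markers 9 fell on day 1 and 10 on day 7, and their sum, led by Myh6, was 0.618 of the sham mean on day 1 and 0.489 on day 7. In the sham hearts the sum was 85730, 73990, 85590 and 88780 CPM, on day 1 it was 53400, 43410, 53290 and 56440, and on day 7 it was 40330, 37820, 46370 and 38680. No marker of the list was at 0 in any library. Every sham heart lay above every heart after ligation, while day 1 and day 7 overlapped, and the part of these cells in the falls above was not tested.

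Each of the 10 genes was therefore also set against the mean log2 CPM of those 11 markers in the same heart, a difference in which the scaling of libraries cancels. Because the markers fell, this measure lifts nearly every gene: the median over all genes tested was 0.56 on day 1 and 1.00 on day 7 against sham, and 0.43 between the days. On day 7 all hearts lay above all sham hearts for 5 of 10, Tbx20 (1.40), Mef2c (1.08), Gata4 (0.81), Mef2a (0.74) and Mef2d (0.40), beside 75.6% of all genes, and below them for 0 of 10, beside 1.46%. Srf (0.53), Nkx2-5 (0.46), Gata6 (0.29) and Hand2 (0.10), called lower on day 7 with TMM, were also upward on this measure, with overlapping groups. Only Tbx20 and Mef2c lay above the median gene there, as they did on CPM, because subtracting the same value from all genes keeps their order. On day 1 it was 5 of 10 above, Gata4 (0.71), Nkx2-5 (0.76), Tbx20 (0.77), Mef2c (0.44) and Mef2d (0.30), beside 54.9% of all genes, and 0 of 10 below, beside 1.88%. These shares do not set the 10 genes apart upward from other genes.

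Tbx5 on this measure was −0.15 on day 1 (exact permutation p = 0.486) and −0.27 on day 7 (exact permutation p = 0.2, adjusted exact p = 0.25), with overlapping groups. Its place among all genes, with 7.25% and 3.01% lower, restates that on CPM, because the same value is subtracted from every gene. Between the days Mef2a (0.50) and Mef2c (0.65) had every day 7 heart above every day 1 heart, beside 40.4% of all genes, and Hand2 (−0.60) had every one below, beside 3.49%. Each gene without overlap had an exact permutation p of 0.0286 and an adjusted exact p of 0.0659 over 30 tests. So 0 of 10 passed in any comparison, and no other tool was run on this measure. On log2(TPM + 1) in place of log2 CPM every direction was kept and still 0 of 10 passed. With the markers left out 1 at a time, the lowest results all stayed the same. Of the highest results 35 stayed the same and 1 moved. Of the 11 markers, 6 are also among the target genes described next, so they do not count cells alone.

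**Figure D3:**
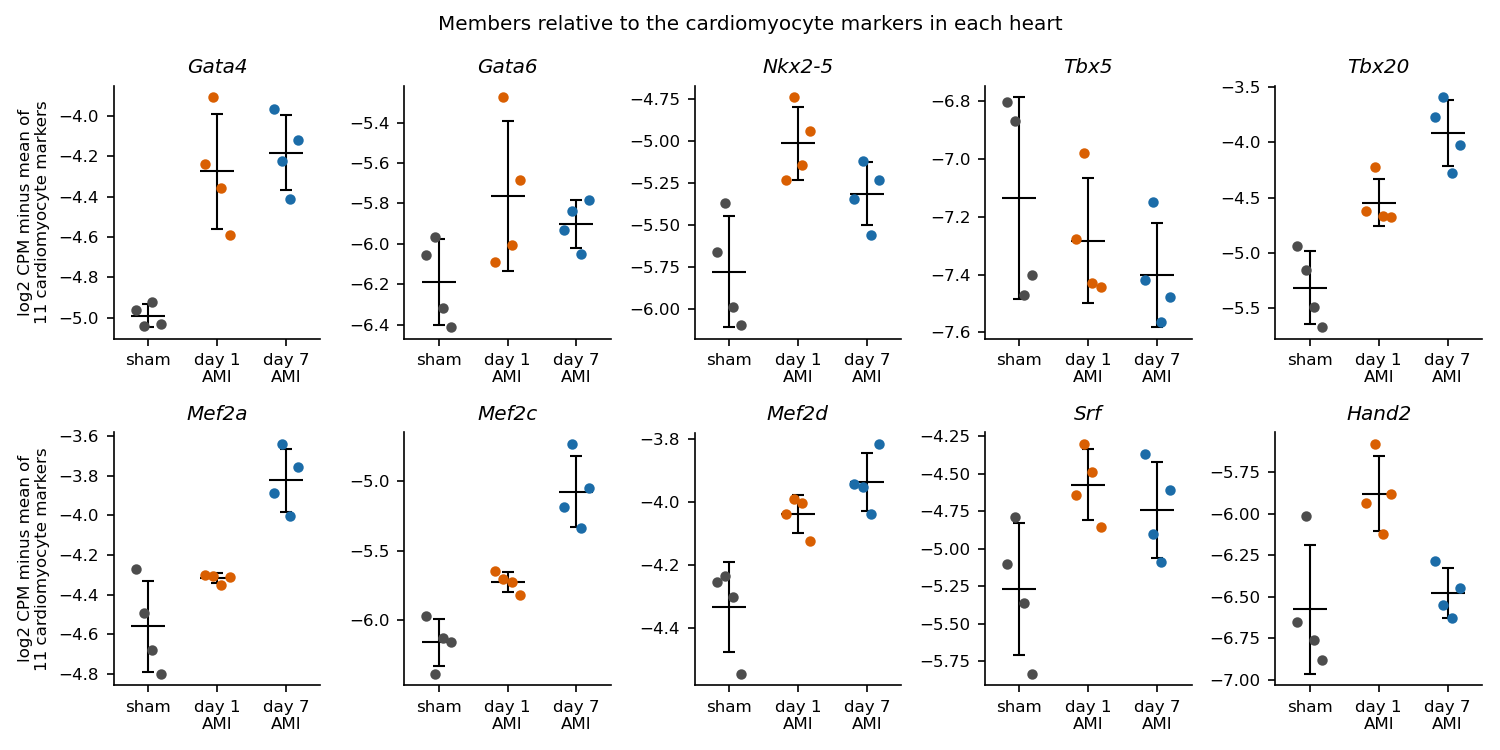
Log2 CPM of each gene minus the mean log2 CPM of 11 cardiomyocyte markers in the same heart (points), with the mean and SD of 4 hearts; axes differ between genes and do not start at 0. On day 7 Gata4, Tbx20, Mef2a, Mef2c and Mef2d lie wholly above sham, as 75.6% of all genes do on this measure, which does not change with library scaling, while Tbx5 overlaps in all groups.

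Markers of other cells moved with the groups. All 8 fibroblast markers rose on day 7, and on day 1 6 rose and 1 fell. Their sum was 1334, 1202, 1132 and 1092 CPM in sham, 1750, 2248, 1745 and 2369 on day 1, and 16450, 11090, 8201 and 11110 on day 7. Dcn was the most abundant in sham and Col3a1 or Col1a1 after infarction. All 9 leukocyte markers, led by Lyz2, rose on both days, from sums of 315, 322, 237 and 220 CPM in sham to 525, 754, 492 and 594 on day 1 and 1101, 784, 719 and 1026 on day 7. None of these markers was at 0 in any library, and their part in the results was not tested.

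Of 8 endothelial markers, led by Kdr or Cdh5, 3 fell on day 1, and 6 rose and 1 fell on day 7. Their sum was 963, 1130, 1037 and 1018 CPM in sham, 803, 857, 843 and 805 on day 1, and 1389, 1233, 1344 and 1352 on day 7. For 8 mural markers, led by Rgs5 or Abcc9, 3 fell and 1 rose on day 1, and 2 fell and 4 rose on day 7. The mural sum was 1273, 1203, 1316 and 1359 CPM in sham, 923, 803, 972 and 927 on day 1, and 1496, 1440, 1351 and 1282 on day 7. Of 6 epicardial markers, led by Aldh1a2 or Upk3b, 3 rose and 1 fell on day 1 and 4 rose on day 7. The epicardial sum was 24.2, 32.3, 14.6 and 16.6 CPM in sham, 66.8, 65.4, 46.5 and 44.5 on day 1, and 45.3, 51.7, 36.2 and 50.4 on day 7. None of these markers was at 0 in any library, and their part in the results was not tested.

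For 6 atrial markers the sum was led by Nppa, which injured ventricle also makes, at 105, 240, 194 and 915 CPM in sham, 1283, 1251, 1017 and 498 on day 1 and 1380, 1802, 1910 and 1276 on day 7. On day 1 Nppa rose (1.99 ± 0.54) and Bmp10 fell (−3.50 ± 1.19), and on day 7 Nppa (2.73 ± 0.56) and Dkk3 (1.48 ± 0.36) rose and Bmp10 fell (−5.28 ± 1.39), a gene for which sham replicate 4 was far above the rest. For 6 erythroid markers, led by Hbb-bs, 4 fell on each day, with sums of 1180, 4459, 491 and 576 CPM in sham, 420, 548, 649 and 607 on day 1 and 660, 241, 536 and 969 on day 7. Neither list had a marker at 0 in any library. Of 6 adipocyte markers 3 could be tested and did not pass by edgeR, and their sum, led by Cfd, stayed between 1.25 and 9.65 CPM, with Lep, Retn or Ucp1 at 0 in several libraries. Of the 6 skeletal muscle markers only Pvalb could be tested and it did not pass. Myh1, Myh2, Myh4 or Myf6 was at 0 in most libraries, and the list's sum ran from 0.334 to 4.21 CPM. Whether any of these took part in the results was not tested.

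**Figure D4:**
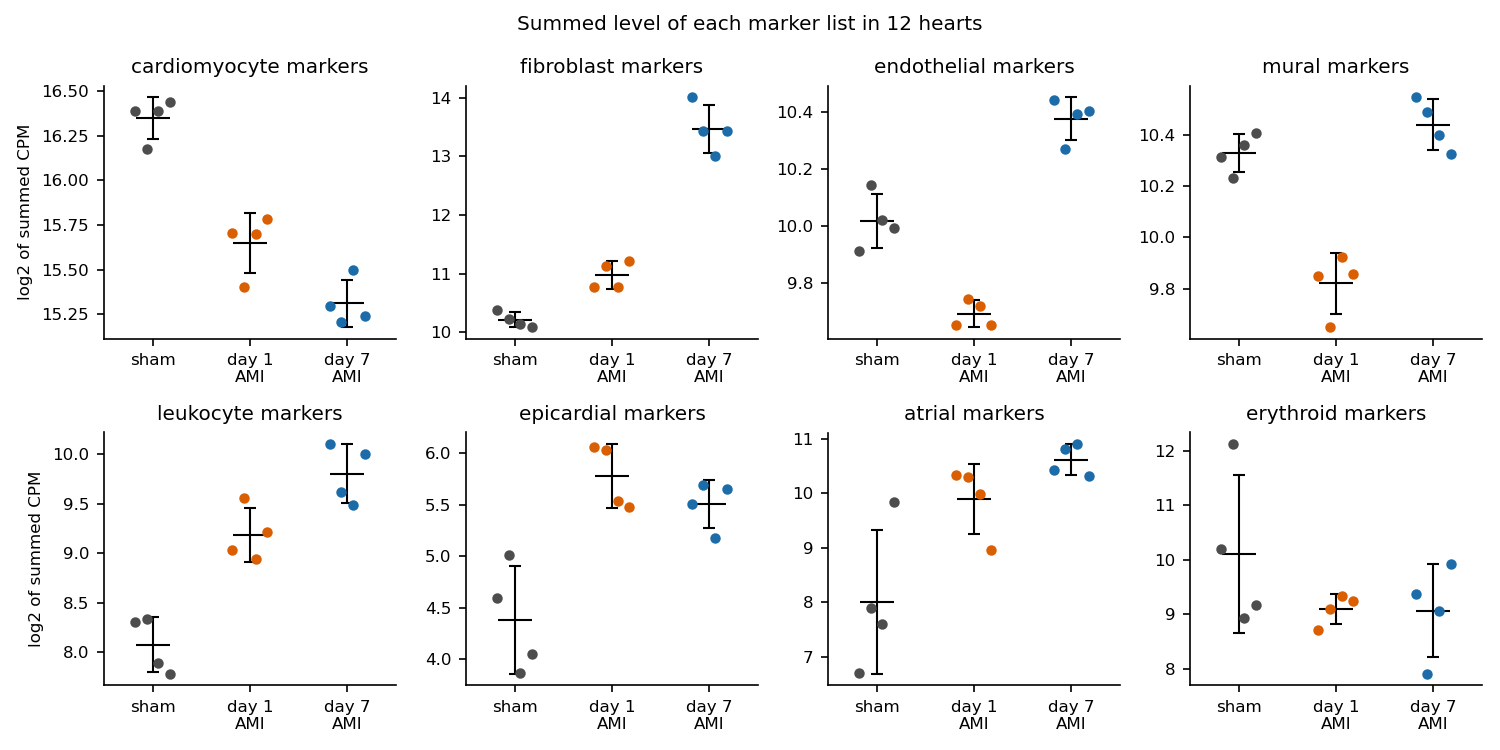
Log2 of the summed TMM-scaled CPM of 8 marker lists in every heart (points), with the mean and SD of 4 hearts per group; axes differ and do not start at 0. Cardiomyocyte sums stepped down to 0.489 of sham by day 7 while fibroblast sums reached 9.84 times sham.

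Fold changes of the lists below, as of the cell markers above, are with TMM and are not given on other scales. On library totals alone the median gene lay at 0.259 on day 1 and 0.425 on day 7 against sham, and at 0.148 between the days. Falls smaller than these may therefore not keep their sign there. Of 11 relatives of the 10 genes, 7 could be tested. On day 1 Gata2, a factor of blood and endothelium, fell (−0.44 ± 0.12), as did Tbx1 (−0.76 ± 0.28, near 1 CPM). On day 7 Tbx18, a T-box gene of epicardium and pericytes, rose by 1.23 ± 0.18 and Tbx2, which represses chamber genes, rose by 0.86 ± 0.11. Gata2 (−0.62 ± 0.12) and Tbx3 (−0.51 ± 0.19), a factor of the conduction system, fell. From day 1 to day 7 Tbx1, Tbx2 and Tbx18 rose. So among T-box genes on day 7, Tbx20, Tbx2 and Tbx18 rose and Tbx5 and Tbx3 fell.

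Of 16 other regulators of heart development 15 could be tested. Irx3, Hey1 and Prox1 were among those that fell on day 1. Prox1 (−0.81 ± 0.13) and Irx3 (−0.79 ± 0.13), a factor of the ventricular conduction system, were among those that fell on day 7. The 5 that rose included Shox2 (1.49 ± 0.35) and Heyl (1.09 ± 0.16), a Notch target of smooth muscle, with Nr2f1, Nr2f2 and Foxp1. Shox2 was low, at 0.644 CPM in sham and 1.84 CPM on day 7. Tead1, a partner of MEF2 and SRF, was 224, 241 and 219 CPM in the 3 group means and did not pass. From day 1 to day 7, 3 fell and 4 rose.

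Among 15 cofactors, 5 fell and 2 rose on day 1, 7 fell and 2 rose on day 7, and 5 fell and 4 rose between the days. Beside these counts, and those of the other lists, stand 19.9% of all genes lower and 22% higher on day 1. On day 7 the shares were 28.4% and 30.9%, and between the days 22.8% and 24.2%. Of the SRF coactivators, Mkl1, which carries actin signals to SRF, rose on both days (0.61 ± 0.14 and 1.02 ± 0.14), while Myocd, the coactivator of heart and smooth muscle, rose on day 1 (0.36 ± 0.12) and was −0.13 on day 7 without passing. Mkl2 fell on day 1 (−0.25 ± 0.09, adjusted p = 0.031) and was −0.0009 on day 7 without passing. Hopx, a homeodomain protein that restrains SRF, fell most on day 7 (−1.37 ± 0.20, adjusted p = 5.07e-05). Smyd1, a muscle methyltransferase, fell next (−0.68 ± 0.08). Of the histone deacetylases that hold MEF2 in check, Hdac5 (−0.63 ± 0.09) and Hdac4 (−0.44 ± 0.13) fell, Hdac7 (0.65 ± 0.10), which endothelium makes, rose, and Hdac9 (−0.25) did not pass. Zfpm2, the FOG protein that binds GATA4, fell on both days (−0.36 on each).

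The 22 cardiomyocyte targets did not move as a block. On day 1, 9 fell and 8 rose, on day 7 12 fell and 6 rose, and between the days 12 fell and 1 rose, with median log2 fold changes of 0.08, −0.46 and −0.34. The largest falls on day 7 were in Myl2 (−1.37 ± 0.14) and Tnni3 (−1.35 ± 0.11), contractile protein genes, with Atp2a2, the calcium pump, at −1.32 ± 0.14. The largest rises were in Myh7 (2.79 ± 0.37), a myosin heavy chain gene, and Nppa (2.73 ± 0.56). Nppb rose most on day 1 (3.38 ± 0.39), before Ankrd1 (2.21 ± 0.32). Gja5, a connexin gene and a known TBX5 target, rose on both days (0.69 ± 0.15 and 0.95 ± 0.15), while Tbx5 fell on both. Actc1, at 11150 CPM in sham, was −0.10 and −0.17 and did not pass.

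Many SRF targets of the cytoskeleton and the early response rose. All 7 immediate early genes rose on day 1, led by Egr2 (2.79 ± 0.45) and Egr3 (2.54 ± 0.42). On day 7, 4 rose, again led by Egr2 (3.46 ± 0.44), and between the days Fos (−1.13 ± 0.39) and Junb (−1.10 ± 0.32) fell. Of 15 cytoskeletal and smooth muscle targets, 8 rose and Smtn fell on day 1, and 11 rose on day 7, led by Actg2 (3.81 ± 0.84) and Cnn1 (2.57 ± 0.56). Between the days 6 rose. Median log2 fold changes on day 7 were 0.78 and 1.34 in these lists, beside 0.03 over all genes. Fibroblast and mural cells make many of the cytoskeletal genes, 2 of which, Tagln and Myh11, are also mural markers here, and their part in the rise was not tested.

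A pair of target promoters shows the motifs of several of the 10 genes side by side, at a gene that rose and a gene that did not pass. In the 250 bases before the start of Nppa, at chr4:148000472-148000721 (plus strand, GRCm38.p6, RefSeq), capitals mark a T-box core on the other strand, an NK2 element (TNAAGTG) and a GATA motif. In those of Actc1, at chr2:114052876-114053125 (minus strand, GRCm38.p6, RefSeq), capitals mark a CArG box. An NK2 element lies in 11.5% of all windows. Among the 19 cardiomyocyte targets with a promoter, 10 held a GATA motif, 6 a T-box core, 3 a CArG box, 2 an NK2 element, 2 a HAND E-box and 0 a MEF2 motif.
Nppa: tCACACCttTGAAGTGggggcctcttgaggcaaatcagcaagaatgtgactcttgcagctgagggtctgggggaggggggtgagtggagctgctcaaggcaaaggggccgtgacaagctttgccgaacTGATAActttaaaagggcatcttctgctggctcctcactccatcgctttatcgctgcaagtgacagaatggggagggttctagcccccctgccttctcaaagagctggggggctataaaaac
Actc1: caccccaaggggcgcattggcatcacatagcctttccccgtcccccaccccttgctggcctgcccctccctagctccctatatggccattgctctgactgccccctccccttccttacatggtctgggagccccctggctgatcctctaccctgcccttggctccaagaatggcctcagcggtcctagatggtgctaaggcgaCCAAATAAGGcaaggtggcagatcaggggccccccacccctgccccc

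The genes whose pattern over the 12 hearts lay closest to that of Tbx5 were Acadsb, Lpl, Agtpbp1, Maob and Fam210a, among 13432 genes compared. Likeness was the mean absolute difference in log2 CPM over the 12 libraries, with each gene centred on its sham mean. It ran from 0.11 for Acadsb, a mitochondrial acyl-CoA dehydrogenase, to 0.15 for Fam210a. Lpl, lipoprotein lipase, was 6640 CPM in sham, 3728 on day 1 and 2764 on day 7. For Tbx20 the closest were Cggbp1, Serpinb6a, Gm38394, Stam and Snx6, with differences of 0.07 to 0.10. Cggbp1, a DNA-binding protein, was 37.6, 42.8 and 54.4 CPM in the 3 groups.

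**Figure D5:**
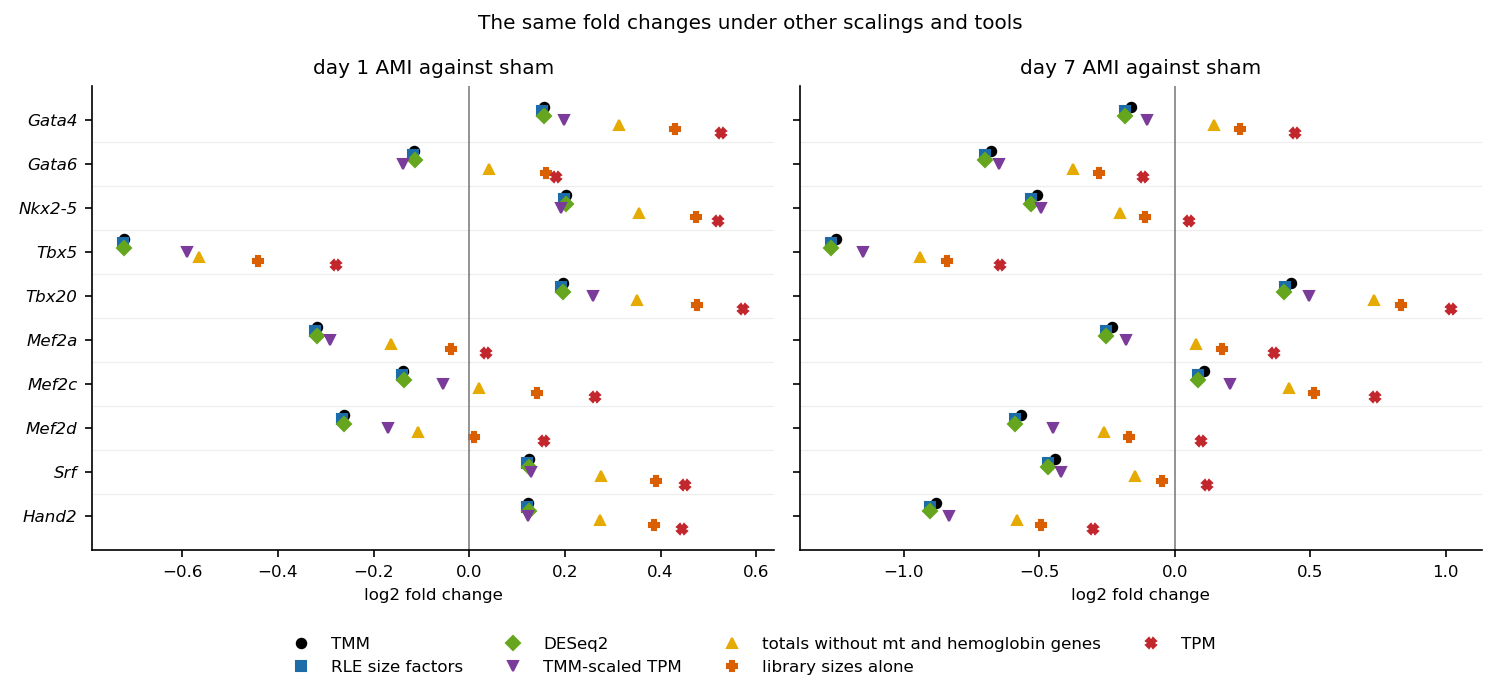
Log2 fold change of each gene against sham on day 1 and day 7 under 7 combinations of tool and scale (symbols). Library totals alone and unscaled TPM shift the median of all genes upward, and TPM moves single genes by differing amounts. Gata6, Mef2c and Mef2d on day 1 and Gata4 and Mef2a on day 7 cross 0 on both. Mef2a on day 1 and Nkx2-5, Mef2d and Srf on day 7 cross it on TPM. Tbx5 stays below 0 and Tbx20 above it on every scale.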

How the data were processed

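Total RNA of 12 mouse hearts was read as 150-base pairs. Per the labels, the authors used CASAVA 1.8, STAR 2.4.0j and RSEM (version not given) on mm10. The deposited values are counts per gene and TPM; the counting tool and strand are not given. Counts were fitted with edgeR 4.0.16 (R 4.3.3): TMM, filterByExpr by group, quasi-likelihood tests in 1 fit of 12 libraries, Benjamini-Hochberg over 15306 genes. A gene was called at an adjusted p under 0.05, and a fold change of 2 was counted apart. Exact permutation tests were two-sided, on log2 CPM with a prior count of 2. Alternatives were DESeq2 1.42.0, limma 3.58.1 on log2(TPM + 1) and log2(TPM + 0.1), other scalings, no filter, only the groups compared, a replicate block, and each heart left out. TMM-scaled TPM, subtraction of the median of all genes, leaving out sham replicates 2 and 4 together, and all genes relative to the cardiomyocyte markers were added after seeing the data. Named genes were the 10 members, genes of fixed lists led by the 2 largest changes each way, and the 5 nearest patterns of the genes with the largest fall and rise; Python 3.11.15 was used for description. Positions are from GENCODE M21. Members and lists were chosen with earlier results of these data known.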

Additional observations from a re-analysis of the deposited data

Results flagged for a closer look

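Among 30 groups of 4 hearts (10 genes in 3 groups), 3 held a heart far from the other 3, by the gap to the nearest heart as a share of the group's range (0.985, 0.894 and 0.923 in the order below); chance gives about 1 in 20 groups. For Tbx20, day 1 replicate 2 stood at 7.322 log2 CPM, with the others at 7.155 to 7.157, which are unusually close together. Sham replicate 2 was low for Mef2c, at 5.733 beside 6.243 to 6.303, and high for Hand2, at 6.102 beside 5.578 to 5.618. That heart also had the most erythroid RNA, whose part was not tested.

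For 7 of the 10 genes the change from sham differed between day 7 and day 1 by the edgeR test of day 7 against day 1, in which the shared sham hearts cancel. On the log2 scale the difference was −0.3173 for Gata4, −0.5638 for Gata6, −0.7093 for Nkx2-5, −0.524 for Tbx5, −0.3049 for Mef2d, −0.5675 for Srf and −1.004 for Hand2. All 7 signs held on the other library scales tried, but relative to the cardiomyocyte markers Gata4 (0.09) and Mef2d (0.10) were upward.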

How the results depend on the processing

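With DESeq2's size factors, DESeq2, only the groups compared, no count filter and TMM-scaled TPM, every direction of the 10 genes was kept; without the filter and on TMM-scaled TPM 2 fell on day 1 in place of 3. A block for replicate number, though an equal number names different animals and does not pair them, gave 3 lower and 0 higher on day 1 against sham, 6 and 1 on day 7, and 7 and 0 between the days, the numbers without it; over all genes it gave 2746 and 3137, 4158 and 4589, and 3272 and 3511.

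On library totals alone, 1 of the 10 fell and 4 rose on day 1, 2 and 2 on day 7, and 2 rose between the days; over all genes 1063 fell and 6288 rose on day 1, 1660 and 8229 on day 7, and 2173 fell and 4770 rose between the days. The day 1 values of Gata6, Mef2c and Mef2d became 0.161, 0.142 and 0.0101, and the day 7 values of Gata4 and Mef2a 0.24 and 0.176. Without mitochondrial and hemoglobin genes in the totals, 1 fell and 3 rose on day 1, and 2 rose on day 7 and between the days; over all genes 1744 fell and 4935 rose on day 1, 2228 and 7424 on day 7, and 2169 and 5162 between the days. Gata6 and Mef2c became 0.0404 and 0.0196 on day 1, Gata4 and Mef2a 0.144 and 0.0779 on day 7.

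With limma on log2(TPM + 1), 0 fell and 5 rose on day 1, 1 and 4 on day 7, and 3 and 3 between the days; over all genes 737 fell and 6171 rose, 1023 fell and 9423 rose, and 1302 fell and 5402 rose. On day 1 Gata6, Mef2a, Mef2c and Mef2d became 0.182, 0.0353, 0.262 and 0.156, and on day 7 Gata4, Nkx2-5, Mef2a, Mef2d and Srf became 0.444, 0.0521, 0.366, 0.0961 and 0.118. With log2(TPM + 0.1) the numbers of the 10 were 0 and 5, 1 and 4, and 3 and 3; over all genes 762 and 6391, 1009 and 9462, and 1268 and 5220. The same genes in the same order became 0.188, 0.0359, 0.272 and 0.158, then 0.45, 0.0528, 0.371, 0.0973 and 0.122. After subtracting the median of all genes, all 30 directions were kept on library totals, but on log2(TPM + 1) Mef2c on day 1 (0.03) and Gata4 on day 7 (0.01), neither of them called, were reversed; the shift of all genes is part of how these scales are built.

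Leaving out each heart in turn gave 1 to 3 lower and 0 to 2 higher on day 1, 6 to 7 lower and 1 higher on day 7, and 6 to 7 lower between the days. The low day 1 count of 1 came without day 1 replicate 2, and the 2 higher without sham replicate 2, where Mef2c on day 7 was −0.0132 (range −0.0132 to 0.165). With sham replicates 2 and 4 left out, 0 rose and 7 fell on day 7, with Mef2a gained (−0.336) and Tbx20 lost, and Mef2c was −0.00288; the cause was not tested. With 4 hearts a group, the exact tests could not pass after correction unless many genes reached the smallest p. Whole-heart RNA does not tell cell types or infarct and remote muscle apart, the day of sham harvest and the counted strand are not given, and protein levels and DNA binding were not measured.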
